A study of Mus musculus with 8 samples.

Results

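The 35 genes described here are 19 transporters and enzymes of glycolysis, 13 other genes that low oxygen is known to induce, and the 3 genes Hif1a, Epas1 and Arnt, which encode subunits of the hypoxia-inducible factors (HIFs). They were chosen by name, with earlier results of these data known, and all 35 stood among the 55492 genes of the deposited tables. RNA was sequenced from YUMM5.2, a mouse melanoma line whose strain the labels give as C57B/6J, after 20 h of culture with the solvent DMSO (4 libraries) or with 4-OI (4 libraries). The labels describe 4-OI as a permeable itaconate; in this field the name stands for 4-octyl itaconate, an ester of the macrophage metabolite itaconate. No source used here gives its dose, and every library comes from this single line. Total counts ranged from 22962963 to 31361677 per library.

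Glycolysis splits glucose into pyruvate and yields ATP without oxygen, and tumour cells often run it at high rates and export the product as lactate. When oxygen is scarce, or when the hydroxylases that mark them for decay are inhibited, the HIF alpha proteins build up, pair with ARNT and switch on glycolytic genes together with genes for mitophagy, acid handling and collagen modification. HIF activity is set largely by the stability of the alpha proteins, which RNA levels do not show. The comparison asks whether the glycolysis genes, the other hypoxia targets and the HIF genes themselves differed between cells given 4-OI and cells given DMSO.

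Most of these genes were lower with 4-OI. A gene was called when its Benjamini-Hochberg adjusted p in edgeR's quasi-likelihood test, adjusted over all 13531 genes tested, was under 0.05. Of the 19 glycolysis genes, 13 were called lower, 1 was called higher and 5 were not called. Of the 13 other hypoxia targets, 12 passed the filter on low counts, and 10 of them were called lower, none higher and 2 not called. All 12 had log2 fold changes below 0, so none was higher at an unadjusted p under 0.05 either, and DESeq2 also called none higher. Of the HIF genes, Hif1a was called lower, Epas1 higher, and Arnt was not called. Over all genes tested, 19.6% were called lower, 19.3% higher and 38.8% in either direction.

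The median log2 fold change was -0.18 over the glycolysis genes and -0.47 over the other hypoxia targets, against 0.00 over all genes tested. In 13 glycolysis genes and 9 hypoxia targets every 4-OI library lay below every DMSO library, which held for 18.0% of all genes tested. In 1 glycolysis gene and 1 HIF gene every 4-OI library lay above, against 17.4% of all genes. When all tested genes were ranked by log2 fold change, 8 of the 19 glycolysis genes and 8 of the 12 hypoxia targets stood in the lowest 10%. The falls were moderate: of the 34 tested genes only Ankrd37 fell by more than 2-fold. The labels speak of separate experiments without naming separate cultures, so p-values measure only how far these samples differ, and that spread may be technical. The libraries are bulk RNA, so a change in each cell and a change in a fraction of the cells cannot be told apart.

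**Figure D1:**
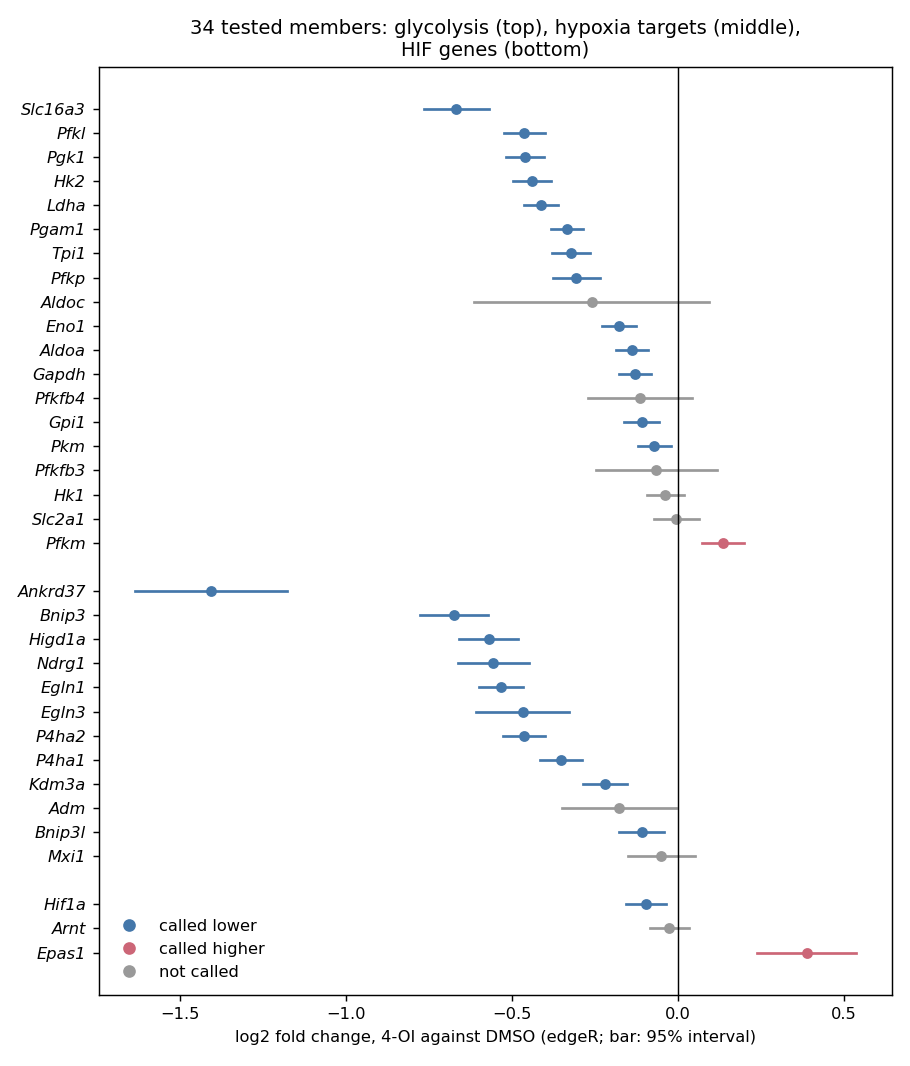
Log2 fold change of 4-OI against DMSO (x axis) for the 34 tested genes, ordered by value within glycolysis (top), hypoxia targets (middle) and HIF genes (bottom); bars are 95% intervals and colours show the edgeR call. Ankrd37 lies farthest left at -1.41, while Pfkm (0.13) and Epas1 (0.39) are the 2 genes called higher.

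The region before the start site is shown for 6 of these genes because so many of them moved together. HIF binds DNA at a short core, written ACGTG or GCGTG, which was searched on both strands of the 250 bases before each RefSeq start site (GRCm38.p6). Capitals mark this core. Ankrd37, Bnip3, Slc16a3 and Pgk1 are genes with large falls, Slc2a1 was not called, and Tpi1 fell without holding the core in this window.
Ankrd37 (chr8:45999851-46000100, minus strand): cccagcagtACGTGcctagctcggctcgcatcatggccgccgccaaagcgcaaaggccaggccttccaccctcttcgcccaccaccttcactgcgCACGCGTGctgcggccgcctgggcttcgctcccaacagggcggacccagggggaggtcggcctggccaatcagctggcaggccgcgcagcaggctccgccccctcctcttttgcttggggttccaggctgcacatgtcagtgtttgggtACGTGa
Bnip3 (chr7:138909507-138909756, minus strand): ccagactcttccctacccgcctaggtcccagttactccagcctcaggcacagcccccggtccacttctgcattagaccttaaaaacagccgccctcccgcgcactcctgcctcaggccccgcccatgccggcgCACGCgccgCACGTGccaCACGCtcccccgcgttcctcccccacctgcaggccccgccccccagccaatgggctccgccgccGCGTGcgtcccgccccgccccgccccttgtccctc
Slc16a3 (chr11:120948817-120949066, plus strand): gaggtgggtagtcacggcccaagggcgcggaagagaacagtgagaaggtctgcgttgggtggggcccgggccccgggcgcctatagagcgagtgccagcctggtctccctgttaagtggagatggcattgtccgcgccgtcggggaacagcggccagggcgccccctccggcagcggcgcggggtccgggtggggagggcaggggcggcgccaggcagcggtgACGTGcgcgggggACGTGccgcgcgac
Pgk1 (chrX:106186850-106187099, plus strand): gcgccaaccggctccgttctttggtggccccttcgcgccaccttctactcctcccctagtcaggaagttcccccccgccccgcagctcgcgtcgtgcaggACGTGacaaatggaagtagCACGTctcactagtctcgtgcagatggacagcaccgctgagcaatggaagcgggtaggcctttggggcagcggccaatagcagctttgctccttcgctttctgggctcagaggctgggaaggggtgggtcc
Slc2a1 (chr4:119108495-119108744, plus strand): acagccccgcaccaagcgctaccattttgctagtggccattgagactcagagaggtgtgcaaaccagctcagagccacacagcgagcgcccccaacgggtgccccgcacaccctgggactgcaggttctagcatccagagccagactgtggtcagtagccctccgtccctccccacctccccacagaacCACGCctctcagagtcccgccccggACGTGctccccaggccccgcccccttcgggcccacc
Tpi1 (chr6:124814159-124814408, minus strand): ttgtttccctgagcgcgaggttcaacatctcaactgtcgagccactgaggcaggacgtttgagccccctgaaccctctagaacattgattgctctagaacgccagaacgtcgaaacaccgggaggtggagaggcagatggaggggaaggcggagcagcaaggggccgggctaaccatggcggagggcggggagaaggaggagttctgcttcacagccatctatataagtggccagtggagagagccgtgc

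RefSeq promoter entries were found for 32 of the 35 genes, some with several start sites. The core stood before at least 1 start site in 17 of 19 glycolysis genes and in 11 of 11 hypoxia targets with an entry. The same held for 62.3% of the tested genes with an entry, so the motif is common among tested genes. Counted by start site, the core was present in 25 of 31 glycolysis windows (80.6%) and 12 of 15 hypoxia target windows (80.0%). It was in 56.0% of windows over the tested genes and in 38.6% of all 32841 windows. Windows of nearby start sites overlap in some genes, such as Eno1 and Aldoa, so the same match can count in more than 1 window. The form ACGTG alone was in 41.9% of glycolysis windows and 60% of hypoxia target windows, against 21.6% over the tested genes. For the form GCGTG these shares lay closer together, at 51.6% and 53.3% against 44.9% over the tested genes. Bnip3 held the core 5 times, as did Ldha before 1 of its start sites, and Ankrd37 held it 4 times. Hk1 and Pfkfb3, which were not called, each held it 3 times before 1 start site. In Bnip3 and Ldha the palindrome CACGTG, which is also the E-box of MYC and its relatives, counts on both strands. In Ankrd37 the matches that begin 155 and 152 bases before the start overlap. The antioxidant response element recognised by NRF2, searched as TGACNNNGC, was in 2 of 19 glycolysis genes and 3 of 11 hypoxia targets, against 13.9% of the tested genes with an entry.

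Genes with and without the core fell. In the glycolysis group, the 17 genes with the core had a median log2 fold change of -0.18. Gpi1 and Tpi1, which lack it in this window, had -0.11 and -0.32, and both were called lower. Slc2a1, Hk1, Pfkfb3, Pfkfb4, Aldoc, Adm, Mxi1 and Arnt hold it and were not called, and Pfkm holds it and was higher. A match is a description of the letters and does not show binding.

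Glucose enters through Slc2a1, the transporter GLUT1 (GRCm38 chromosome 4, 119108711 to 119137983). Slc2a1 gave 144, 160.4, 160.0 and 151 CPM with DMSO, in replicate order, and 147, 157, 152 and 155 CPM with 4-OI. The groups overlapped throughout, the log2 fold change was -0.01 (edgeR adjusted p = 0.902), and its 95% interval ran from -0.07 to 0.06. Hexokinases then trap glucose as its phosphate. Hk2, the inducible hexokinase, measured 141, 139.6, 145 and 135 CPM in replicates 1 to 4 of DMSO, against 106, 102, 103 and 102 in those of 4-OI. All 4-OI values lay below all DMSO values (log2 fold change -0.44, standard error 0.03, edgeR adjusted p = 8.98e-11). The broadly expressed Hk1 was the more abundant of the pair, at 85.5 TPM (transcript abundance scaled for length and library) with DMSO against 46.2 for Hk2. It was not called, at 207 ± 6.90 to 201 ± 3.36 CPM (SD, n = 4) and a 95% interval of -0.09 to 0.02 on the log2 scale.

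Gpi1, the isomerase that follows, was slightly lower (log2 fold change -0.11, edgeR adjusted p = 0.00173). Phosphofructokinase commits the sugar to glycolysis, and its 3 genes parted. Pfkl, the liver-type subunit, stood at 345, 362, 374 and 361 CPM across DMSO replicates 1 to 4 and at 262, 270.2, 265 and 249 across 4-OI replicates 1 to 4. This was a clear separation (log2 fold change -0.46, standard error 0.03, edgeR adjusted p = 1.03e-10). Pfkp, the platelet-type subunit, gave 112, 121, 128 and 118 CPM with DMSO, in replicate order, and 99.7, 95.4, 97.3 and 95.3 CPM with 4-OI, and it too fell without overlap (log2 fold change -0.31, standard error 0.03, edgeR adjusted p = 4.19e-07). Pfkm, the muscle-type subunit, measured 86.9, 89.1, 91.0 and 86.8 CPM in replicates 1 to 4 of DMSO, against 98.9, 99.6, 97.5 and 92.1 in those of 4-OI. Here the 4-OI libraries were all above the DMSO libraries, though by a margin of about 1 CPM at the closest (log2 fold change 0.13, standard error 0.03, edgeR adjusted p = 0.00139). Pfkm was the one glycolysis gene that rose.

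Pfkfb3 and Pfkfb4, which make and remove the sugar bisphosphate that activates phosphofructokinase, were scarce and not called. Their means with DMSO were 3.05 ± 0.546 and 5.43 ± 1.18 TPM (SD, n = 4), and their log2 fold changes were -0.07 and -0.12 with 95% intervals of -0.25 to 0.12 and -0.27 to 0.04. Both intervals include falls like those of several called enzymes, so these genes cannot be said to have stayed level.

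The enzymes of the lower pathway were among the most abundant transcripts. Gapdh, which oxidises the triose phosphate, had the highest TPM of the 19 averaged over both groups, followed by Pkm (pyruvate kinase) and Ldha (lactate dehydrogenase), with Eno1 close behind. Gapdh stood at 3821, 3922, 3772 and 3862 CPM across DMSO replicates 1 to 4 and at 3514, 3533, 3529 and 3472 across 4-OI replicates 1 to 4. Pkm gave 3174, 3299, 3252 and 3231 CPM with DMSO, in replicate order, and 3099.9, 3133, 3076 and 3017 CPM with 4-OI. Ldha measured 1549.9, 1622, 1630.2 and 1619 CPM in replicates 1 to 4 of DMSO, against 1225, 1197, 1213 and 1184 in those of 4-OI. Neither Gapdh, Pkm nor Ldha showed overlap between the groups, but the sizes of their falls were far apart. The log2 fold change was -0.13 for Gapdh and -0.07 for Pkm (edgeR adjusted p = 0.000177 and 0.023), whereas that of Ldha was -0.41 (edgeR adjusted p = 4.53e-11). The call of Pkm ended without DMSO replicate 2, 4-OI replicate 1 or 4-OI replicate 3 (edgeR adjusted p = 0.0915, 0.0652 and 0.0683), when scaled by library totals (0.0892) and without the count filter (0.0569). It also ended in all 4 limma fits to TPM or FPKM (adjusted p = 0.0645 to 0.203).

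Between aldolase and pyruvate kinase the fall was uneven. Pgk1, phosphoglycerate kinase, which makes the first ATP of the pathway, stood at 1309, 1394, 1432 and 1399 CPM across DMSO replicates 1 to 4 and at 1011, 993, 1006 and 1008 across 4-OI replicates 1 to 4. The 4-OI libraries sat within a narrow band well below the DMSO libraries (log2 fold change -0.46, standard error 0.03, edgeR adjusted p = 3.61e-11). Pgam1 (phosphoglycerate mutase, -0.33) and Tpi1 (triose phosphate isomerase, -0.32) fell by similar amounts, while Eno1 (enolase, -0.18) and Aldoa (the main aldolase, -0.14) fell by less. The brain-type aldolase Aldoc was near 2 CPM and was not called (-0.26, 95% interval -0.61 to 0.09). Named pseudogenes of Gapdh, Pgk1, Pgam1, Ldha, Aldoa and Bnip3l have rows of their own. None of these rows held more than 927 counts summed over all libraries, the highest being for Pgam1 and the next 196 for Gapdh. Counting may have split reads between them and these genes, whose levels are uncertain to that extent. Copies under other kinds of name were not searched. Aldoa also stands on another row, a gene identifier with at most 19 counts in any library, which was left out.

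Slc16a3, the lactate exporter MCT4 (GRCm38 chromosome 11, 120948480 to 120960868), had the largest fall of the glycolysis group. Slc16a3 gave 41.1, 45.6, 45.3 and 45.3 CPM with DMSO, in replicate order, and 25.8, 29.1, 29.1 and 27.4 CPM with 4-OI. Every 4-OI library was well below the lowest DMSO library, which was replicate 1 (log2 fold change -0.67, standard error 0.05, edgeR adjusted p = 5.91e-10). The size of the fall did not follow abundance: across the 19 genes Pearson's r between the log2 fold change and log2 mean TPM was -0.07, given as a description of genes that share the same libraries.

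**Figure D2:**
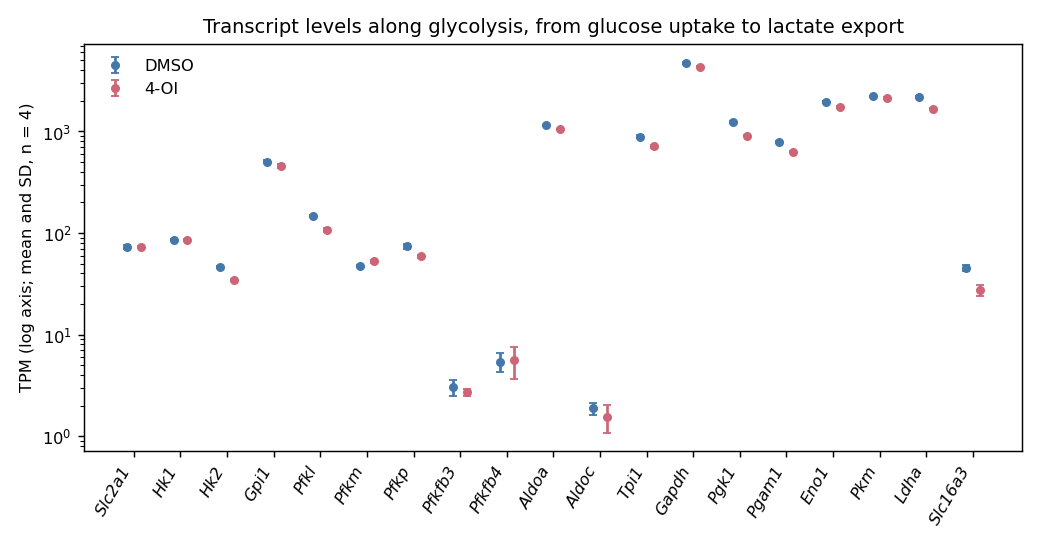
TPM of the 19 glycolysis genes (y axis, log scale; mean and SD of 4 libraries per group) in pathway order from uptake to lactate export. Levels run from Aldoc at 1.88 TPM to Gapdh at 4707 TPM with DMSO, and the gap between groups is widest for Slc16a3.

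Together the 19 glycolysis transcripts made up 1.62 ± 0.0221% of all TPM with DMSO and 1.41 ± 0.0177% with 4-OI (SD, n = 4). The 13 hypoxia targets made up 0.0864 ± 0.00546% and 0.0638 ± 0.000812%, and the 3 HIF genes 0.0108 ± 0.000265% and 0.0105 ± 0.000285%. Summed levels of the first 2 groups did not overlap between DMSO and 4-OI libraries, while those of the HIF genes did.

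Because paralogues moved unequally, the make-up of some families shifted. Hk2 went from 35.1 ± 0.0328% to 28.8 ± 0.294% (SD, n = 4) of hexokinase TPM. Pfkm went from 17.7 ± 0.409% to 24.0 ± 0.137% (SD, n = 4) of phosphofructokinase TPM, and Pfkl from 54.7 ± 0.631% to 49.0 ± 0.602% (SD, n = 4). The shares of Pfkp overlapped, at 27.6 ± 0.702% to 27.0 ± 0.657% (SD, n = 4). Bnip3 went from 66.3 ± 3.38% to 55.1 ± 1.5% (SD, n = 4) of the TPM it shares with Bnip3l. In each of these, except for Pfkp, the shares in the 4-OI libraries lay outside the range of the DMSO libraries.

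The difference between 2 paralogues was tested as the log2 ratio of their CPM in each library, with a two-sided exact permutation test over the 70 arrangements of the libraries. These 11 pairs were set after their values had been seen. The ratio of Hk2 to Hk1 changed by -0.40, Pfkl to Pfkm by -0.60, Pfkp to Pfkm by -0.44 and Pfkl to Pfkp by -0.16 on the log2 scale. Bnip3 to Bnip3l changed by -0.56, P4ha1 to P4ha2 by 0.11 and Epas1 to Hif1a by 0.49. Each of these 7 ratios gave an exact permutation p of 0.0286, the minimum for 4 against 4 libraries, or 0.0449 adjusted over the 11 pairs. For Pfkl to Pfkm and Pfkp to Pfkm this outcome was fixed beforehand, because the genes had already separated in opposite directions. The adjusted value also depends on which pairs were chosen, so these p-values only describe the separation. The ratios of Egln1 to Egln3 (-0.06, exact p = 0.314), Ldha to Ldhb (-0.08, exact p = 0.229), Aldoa to Aldoc and Pfkfb3 to Pfkfb4 (exact p = 0.6 for both) did not reach that minimum. The shares of P4ha1 and P4ha2 in TPM overlapped between the groups although their ratio in CPM did not.

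**Figure D3:**
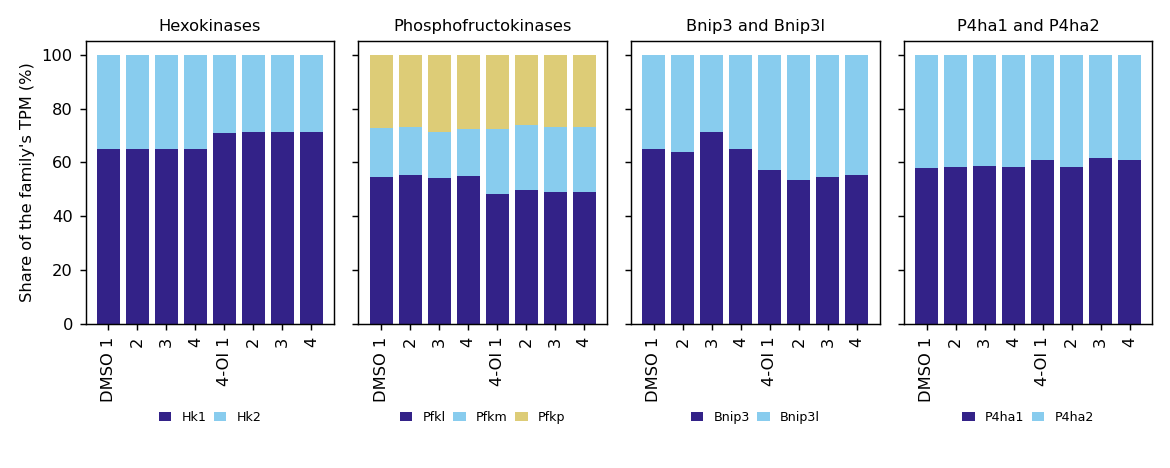
Share of each family's summed TPM (y axis, percent) held by each paralogue in the 8 libraries, 4 DMSO then 4 4-OI; each stack adds to 100%. The Hk2 and Bnip3 parts are smaller and the Pfkm part larger in all 4 4-OI libraries, while P4ha1 and P4ha2 overlap between the groups.

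Among the other hypoxia targets, Ankrd37, an ankyrin repeat gene known mainly as a HIF target (GRCm38 chromosome 8, 45996902 to 46005707), fell the most of all 34 tested genes. Ankrd37 measured 7.42, 9.48, 8.42 and 9.29 CPM in replicates 1 to 4 of DMSO, against 3.98, 2.59, 3.36 and 3.17 in those of 4-OI. The lowest DMSO library still had nearly double the CPM of the highest 4-OI library (log2 fold change -1.41, standard error 0.11, edgeR adjusted p = 2.87e-09). Only 0.273% of the tested genes had a log2 fold change as low or lower.

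Bnip3 and Bnip3l (also called NIX) encode receptors that direct mitochondria to autophagy. Bnip3 stood at 144, 171, 176 and 159 CPM across DMSO replicates 1 to 4 and at 101, 93.8, 105 and 106 across 4-OI replicates 1 to 4. Bnip3 fell in full separation (log2 fold change -0.67, standard error 0.05, edgeR adjusted p = 9.76e-10), although its DMSO libraries were themselves spread over more than 30 CPM. Bnip3l gave 99.9, 109.9, 111 and 104 CPM with DMSO, in replicate order, and 99.9, 95.7, 98.1 and 99.6 CPM with 4-OI. The groups of Bnip3l met, and its small fall (log2 fold change -0.11, edgeR adjusted p = 0.0101) did not appear in TPM: there it was -0.02 on the log2(TPM + 1) scale with a limma adjusted p of 0.913. Higd1a, a small protein of the inner mitochondrial membrane, was far more affected. Higd1a measured 52.8, 51.7, 56.9 and 59.0 CPM in replicates 1 to 4 of DMSO, against 36.2, 37.0, 37.2 and 38.1 in those of 4-OI (log2 fold change -0.57, standard error 0.04, edgeR adjusted p = 1.15e-09).

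Egln1 and Egln3 encode the oxygen-sensing prolyl hydroxylases PHD2 and PHD3, which mark HIF alpha proteins for decay and are themselves HIF targets. Egln1 stood at 184, 203, 207 and 192 CPM across DMSO replicates 1 to 4 and at 134, 138, 136 and 134 across 4-OI replicates 1 to 4. The 4-OI values of Egln1 lay within 5 CPM of each other and far below the DMSO values (log2 fold change -0.54, standard error 0.03, edgeR adjusted p = 4.63e-11). Egln3 was about an eighth as abundant in CPM and fell in like proportion, from 23.8 ± 2.52 to 17.1 ± 1.11 CPM (SD, n = 4). The collagen prolyl hydroxylases P4ha1 and P4ha2, which use the same kind of chemistry on collagen chains, also fell without overlap, with log2 fold changes of -0.35 and -0.46 (edgeR adjusted p = 1.21e-08 and 1.93e-10).

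Ndrg1, a stress and differentiation gene whose product restrains metastasis in several tumours, was also variable among the DMSO libraries. Ndrg1 gave 109.7, 129, 142 and 124 CPM with DMSO, in replicate order, and 86.2, 83.0, 89.5 and 83.6 CPM with 4-OI. Even so, its lowest DMSO library, replicate 1, lay above the highest 4-OI library (log2 fold change -0.56, standard error 0.05, edgeR adjusted p = 3.78e-08). Kdm3a, a histone demethylase that needs oxygen, fell by a smaller amount, from 75.6 ± 2.38 to 64.8 ± 1.58 CPM (SD, n = 4).

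Adm, Mxi1 and Car9 were not called. Adm, the vasodilator peptide adrenomedullin, had a difference of -0.18 on the log2 scale (95% interval -0.35 to -0.01, edgeR adjusted p = 0.0956). Mxi1, an antagonist of MYC, had -0.05 (edgeR adjusted p = 0.432, 95% interval -0.15 to 0.05). Without DMSO replicate 1, Mxi1 was called lower (log2 fold change -0.11, edgeR adjusted p = 0.0431). Car9, a carbonic anhydrase at the cell surface that is among the most strongly HIF-dependent genes, was close to the limit of detection and below the filter. Its counts were 10, 10, 14 and 10 with DMSO and 9, 3, 6 and 9 with 4-OI, or 0.433 ± 0.127 to 0.235 ± 0.105 CPM (SD, n = 4). Over the 70 arrangements of the libraries the two-sided exact permutation p for its mean CPM was 0.0571, so no difference was detectable at this depth.

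**Figure D4:**
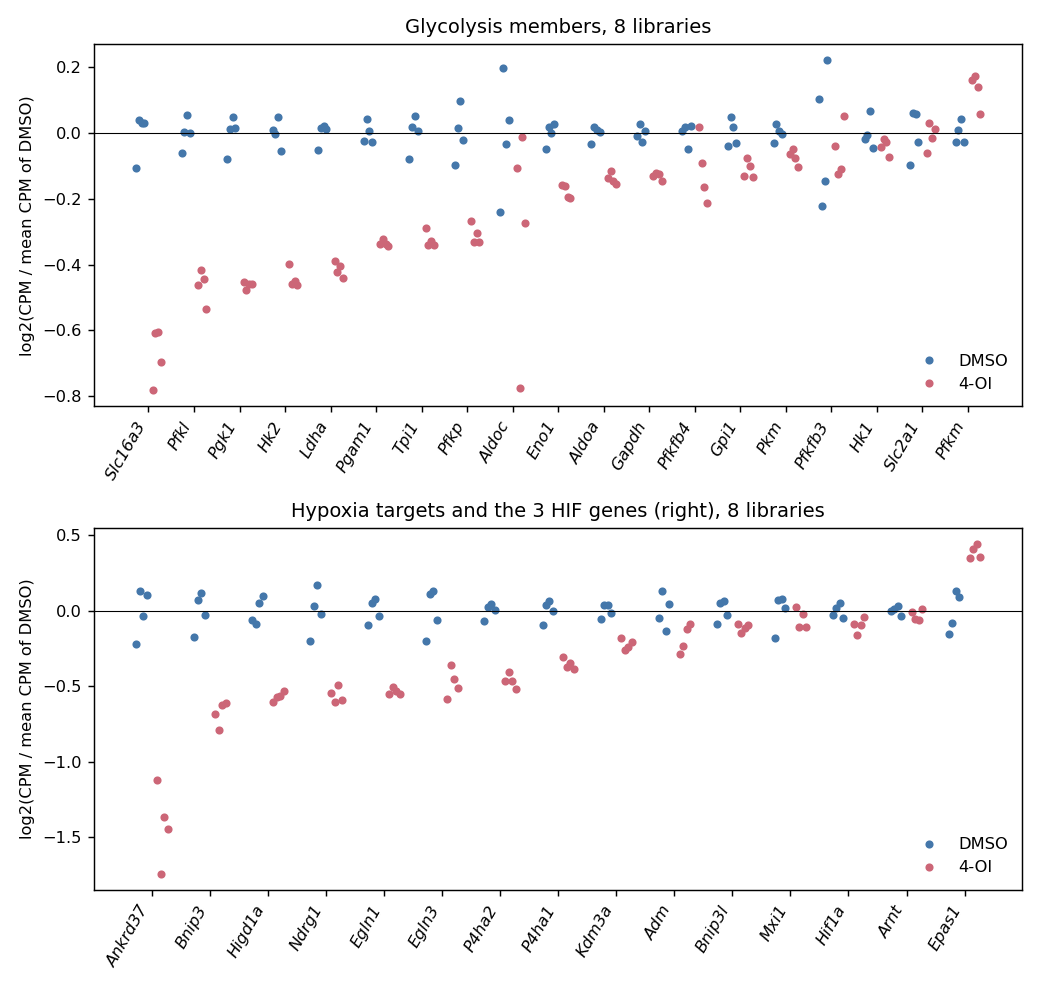
Log2 of each library's CPM over the mean CPM of the DMSO libraries (y axis) for 19 glycolysis genes (top) and for 12 hypoxia targets and 3 HIF genes (bottom); points are single libraries, 4 per group. The 4-OI points lie clear of the DMSO points for 13 glycolysis genes and 9 hypoxia targets on the low side, and for Pfkm and Epas1 on the high side.

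Of the HIF genes themselves 1 fell by little and 1 rose. Hif1a, the main oxygen-regulated alpha subunit, measured 202, 208, 213 and 199 CPM in replicates 1 to 4 of DMSO, against 194, 183, 192 and 199.5 in those of 4-OI. The groups overlapped by a single pair, 4-OI replicate 4 against DMSO replicate 4, and the fall was small (log2 fold change -0.10, standard error 0.03, edgeR adjusted p = 0.0109); on the log2(TPM + 1) scale it was not called (limma adjusted p = 0.115). Epas1, which encodes HIF-2 alpha, stood at 6.66, 7.03, 8.12 and 7.91 CPM across DMSO replicates 1 to 4 and at 9.46, 9.85, 10.1 and 9.48 across 4-OI replicates 1 to 4. All 4-OI values exceeded all DMSO values (log2 fold change 0.39, standard error 0.07, edgeR adjusted p = 0.000224). Per length, Epas1 was a small part of the pair, at 1.95 TPM with DMSO against 64.7 for Hif1a, and its share went from 2.92 ± 0.285% to 4.03 ± 0.216% (SD, n = 4). Arnt, the constant partner of both alpha subunits, gave 92.9, 93.8, 95.03 and 91.0 CPM with DMSO, in replicate order, and 92.6, 89.8, 89.2 and 94.0 CPM with 4-OI. Those values overlapped (log2 fold change -0.03, edgeR adjusted p = 0.488, 95% interval -0.08 to 0.03).

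Of 15 regulators of HIF tested, 1 was lower, 2 were higher and 12 were not called, with a median log2 fold change of -0.02; over all tested genes 38.8% were called. The tumour suppressor Vhl, which takes hydroxylated HIF alpha to the proteasome, had -0.15 (edgeR adjusted p = 0.0661), Egln2 -0.02 and the asparagine hydroxylase Hif1an 0.00. The genes called were Arnt2, a relative of Arnt (1.52, from 3.00 to 8.62 CPM), Cited2, which competes with HIF for its coactivators (0.30), and Siah1b, a ubiquitin ligase (-0.39).

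Most further genes known to be induced by hypoxia were lower. Of 32 tested, 21 were lower, 6 higher and 5 not called, with a median log2 fold change of -0.27. Over all genes tested 19.6% were called lower and 19.3% higher, so the number higher was close to the share over all genes. The largest falls were those of Pdgfb, a platelet-derived growth factor (-0.94), Tmem45a (-0.89) and Loxl2, a collagen crosslinking enzyme (-0.85). Among those that rose were Gbe1, the glycogen branching enzyme (2.02, from 37.9 ± 0.472 to 154 ± 3.70 CPM, SD, n = 4), and Insig2, a brake on sterol synthesis (0.28). Outside the 19, 13 isoforms and side branches of glycolysis were tested. Of these, 6 were lower, 1 higher and 6 not called, beside the same 19.6% and 19.3% over all genes. Their median log2 fold change was -0.17. Eno3 (-0.47), Bpgm, which makes bisphosphoglycerate (-0.45), and Ldhb (-0.34) led the falls, and Tigar, a phosphatase that lowers glycolytic flux, was higher (0.29).

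The DMSO libraries were not alike in these genes. DMSO replicate 1 was the lowest of its group for 12 of 19 glycolysis genes and 10 of 12 hypoxia targets, and replicate 3 was the highest for 8 of the hypoxia targets. Replicates 2 and 3 were each the highest for 8 glycolysis genes. The same was not counted over all genes tested, so whether replicate 1 was low in these genes alone was not tested. Genes that vary together in a library are not independent in such counts. The median over the hypoxia targets of log2 CPM relative to the DMSO mean was -0.10 in DMSO replicate 1 and 0.06 in replicate 3, and between -0.52 and -0.39 in the 4-OI libraries. For the glycolysis genes the same measure was -0.04 and 0.02 in those DMSO libraries and -0.21 to -0.14 with 4-OI. Without DMSO replicate 1, 13 glycolysis genes and 11 hypoxia targets were called lower.

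The melanoma label was checked against pigment cell markers: Mitf was present and higher with 4-OI (0.64), but the other 10 of 11 markers, Tyr, Pmel and Sox10 among them, had at most 10 counts in every library. Of 5 fibroblast markers, Col1a1 (-1.39), Postn (-1.41) and Dcn (-1.39) were lower, Pdgfra was slightly higher (0.10) and Lum was at 0 in every library. Their summed CPM was 137 to 149.8 with DMSO and 123 to 131 with 4-OI, and the part of such a shift in the results was not tested. Immune markers summed to at most 2.47 CPM, endothelial markers to at most 0.457 and keratinocyte markers to at most 0.304 CPM in any library.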

How the data were processed

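RNA was measured as polyA RNA in 8 libraries, grouped by title. Build GRCm38 and, without roles or order, RSEM 1.3.3, STAR 2.7.8a, cutadapt 2.3, MultiQC 1.7 and FastQC 0.11.8 are listed per the submitters' processing notes. The authors deposited expected counts per gene (whole numbers here), TPM and FPKM. Annotation release and strand setting: not given in the sources used here.

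The members and lists were chosen with earlier results of these data known. Expected counts were tested with edgeR 4.0.16 in R 4.3.3: filterByExpr (minimum count 10), TMM, a two-sided quasi-likelihood F test without covariates, and Benjamini-Hochberg adjustment over 13531 genes, called under 0.05. CPM use TMM-scaled totals. Standard errors are approximate: the absolute log2 fold change of that fit divided by the square root of its F statistic. The 95% intervals were built from them with a t quantile. Car9, below the filter, had an exact permutation test. Alternatives used DESeq2 1.42.0, limma 3.58.1 with a trend on log2(value + 1) or log2(TPM + 0.1), other scalings, no filter, a replicate block, a GC and length correction (mgcv 1.9.3, GENCODE M21 transcripts), and each library left out. The procedure was tested on simulated data. Members named with values per library were all HIF genes, the 5 largest changes per class, members against their class, the 3 most abundant enzymes and diverging paralogues; others named this way were chosen after their values were seen. One gene outside the 35 members, which the rule names from a list of further genes, is not reported here.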

Additional observations from a re-analysis of the deposited data

Results flagged for a closer look

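Among 70 groups of 4 libraries (35 genes in DMSO and in 4-OI), 2 held a library that stood apart by Dixon's criterion, and chance alone gives about 1 in 20. Both were DMSO replicate 1. Ldha had 1549.9 CPM there, against 1619 to 1630.2 in the other DMSO libraries. Slc16a3 had 41.1 CPM there, against 45.3 to 45.6. Both values remained above those of every 4-OI library.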

How the results depend on the processing

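Of the 34 tested members, 23 kept their direction and their side of the threshold under all 18 alternatives; the exceptions were Slc2a1, Hk1, Gpi1, Pfkfb3, Pfkfb4, Gapdh, Pkm, Bnip3l, Mxi1, Hif1a and Epas1. The count of glycolysis genes called lower ranged from 10 to 13 and that of hypoxia targets from 9 to 11. Over all genes, 5253 were called, against 3380 for limma on log2(TPM + 1), 3365 on log2(TPM + 0.1), 3423 on log2(FPKM + 1) and 2646 on log2(TPM + 1) without a filter. HIF genes called numbered 2, against 1, 1, 1 and 0 in the same order, since Hif1a and, without a filter, Epas1 (adjusted p = 0.0876) lost their calls. Without a filter on TPM, Gpi1 (adjusted p = 0.0887) and Gapdh (0.058) also lost theirs. The cause was not tested. Signs turned only for genes that were never called: Slc2a1 became 0.012 with library totals, 0.0033 without a count filter, 0.0095 on both log2(TPM + 1) scales, 0.0096 on log2(TPM + 0.1) and 0.018 on log2(FPKM + 1), and ran from -0.037 to 0.015 with 1 library left out. Pfkfb4 became 0.010, 0.0060 and 0.019 on the log2(TPM + 1), log2(TPM + 0.1) and log2(FPKM + 1) scales, Hk1 0.0053 on log2(FPKM + 1), and Pfkfb3 ran from -0.132 to 0.025 with 1 library left out.

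With a replicate block, 5143 genes were called, and 13 glycolysis genes and 10 hypoxia targets were lower, as without it. The deviations of libraries with the same number had correlations of 0.07, 0.07, -0.01 and -0.02. DMSO replicates 1 and 2 matched best with the 4-OI replicates of the same number, and replicates 3 and 4 did not. The labels do not say whether numbers pair across groups, and such correlations cannot show how the experiments were laid out. Depth limits what can be said of Car9, Aldoc, Pfkfb3, Pfkfb4 and Adm, all under 10 CPM on average and none of them called; Ankrd37 and Epas1, also under 10 CPM, were called.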
